A study of Mus musculus with 20 samples.

Results

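Side population (SP) cells sorted from skeletal muscle were compared with SP cells sorted from bone marrow, on 5 arrays of each, which are 10 of the 20 arrays of the study. The arrays were chosen by their titles, and every probe set that is not an array control entered the comparison, 12422 of 12488. All cells came from adult mice of the inbred strain C57BL/10SnJ, with no genotype or treatment named, and one muscle SP array is labelled only as murine. The other 10 arrays hold the main population (MP) of the same tissues, 5 each from muscle and bone marrow. They are used here to ask whether a tissue difference differs between SP and MP cells, and once to choose tissue genes. They also entered the normalization, the cut on dim values and the shared estimate of spread, and so affect the SP p-values. The labels do not say how many animals were pooled, how the dye was gated or whether the arrays of a group came from separate animals, so the p-values reflect only how much these arrays vary within a group, a spread that may be technical.

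The side population is defined by what it does and not by a surface protein. Its cells export a DNA-binding Hoechst dye through membrane pumps of the ABC transporter family, above all the product of Abcg2, and so appear as a dim tail beside the dye-retaining main population in a cell sorter. In bone marrow the dim tail is known as a rich source of blood stem cells. In skeletal muscle the SP gate is known to hold cells of the vessel wall, cells of the connective tissue and a small blood-derived share, so the comparison asks which genes the same functional gate brings together from each tissue.

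The label of each group was first set against the signal of marker genes. In what follows a level is the log2 of the normalised signal of a probe set, values in a row are replicates 1 to 5 in order, and signals below 105 (log2 6.71) were set to that floor. The blood cell gene Ptprc, the phosphatase CD45, read 13.79, 12.84, 14.31, 13.44 and 14.21 on the bone marrow SP arrays, and the vessel gene Cdh5, VE-cadherin, read 14.68, 14.82, 14.86, 14.01 and 14.09 on the muscle SP arrays. Each group thus carried the 1 blood or vessel marker shown for it. Both genes were picked after their values were seen, and Cdh5 is among the 12 largest differences, so they are no independent check of the labels. Muscle SP arrays 1, 2 and 3 also carried blood transcripts and some muscle fibre transcripts that arrays 4 and 5 had at far lower levels. Ngp, a granule protein of neutrophils, read 12.44, 13.87, 11.60, 6.71 and 6.71 on the muscle SP arrays, the last pair being the floor. Acta1, skeletal actin of the muscle fibre, read 12.07, 12.39, 12.41, 9.31 and 9.59, and Hbb-b2, a beta-globin, 13.03, 12.36, 11.61, 9.87 and 9.65, both lower on arrays 4 and 5. Muscle fibre genes did not all follow Acta1. Myom1 read 9.82, 10.13, 10.001, 11.82 and 12.14, and Tpm1 was also highest on arrays 4 and 5. The summed log2 signal of the muscle fibre list was 15.59, 15.38, 15.41, 15.34 and 15.35 on muscle SP 1 to 5. Bone marrow SP 2 in turn carried some vessel and matrix transcripts, with Cdh5 at 9.14 and Col1a2 at 8.55 where the other bone marrow SP arrays had at most 7.15 and 6.71. The wider lists were mixed. The log2 sums of caveolae (13.35) and basement membrane genes (13.17) were highest on bone marrow SP 2. That of the matrix list was highest on bone marrow SP 1 (14.60 against 14.36) and that of the endothelial list on bone marrow SP 5 (16.46 against 16.28). Genes chosen on the MP arrays alone as at least 16-fold higher in bone marrow than muscle, 102 in number, had medians of 7.66, 8.45, 8.28, 7.18 and 7.28 on muscle SP 1 to 5 and of 11.89, 11.36, 11.97, 11.34 and 10.37 on the bone marrow SP arrays. As a sign of RNA quality, the GAPDH control probe sets at the 3' and 5' ends of the transcript had a log2 ratio of 3.83 ± 0.61 on muscle SP and 3.72 ± 0.60 on bone marrow SP arrays (SD, n = 5, exact two-sided permutation p = 0.81), and that of beta-actin 2.52 ± 0.40 and 2.07 ± 0.72 (SD, n = 5, exact permutation p = 0.246). These p-values compare the groups only and do not rate the RNA. On every SP array the 3' GAPDH signal far exceeded the 5' signal, with log2 ratios from 2.94 to 4.79. Whether this bears on single probe sets was not tested. Differences between the SP groups that leaving out either set of muscle SP arrays moved by over 1.5 times are given with and without them, and the interactions with MP cells were fitted on all arrays. In all 1378 genes were higher in muscle SP and 1632 lower, against 1320 and 1394 without muscle SP 1, 2 and 3 and 1206 and 1379 without muscle SP 4 and 5.

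**Figure D1:**
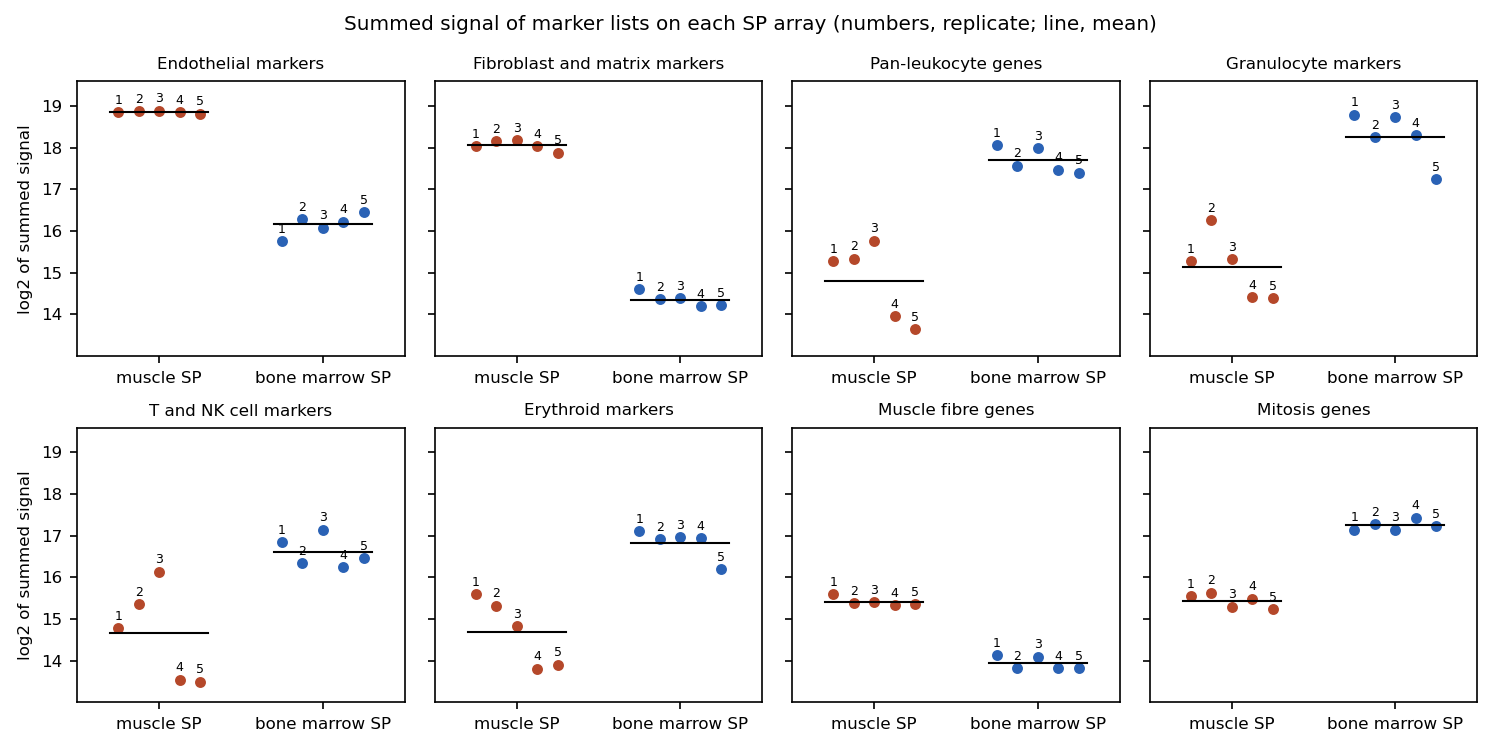
Summed signal of 8 marker lists on each of the 10 SP arrays, on a log2 scale, with muscle SP in red, bone marrow SP in blue, the replicate number above each point and the group mean as a line. Leukocyte, granulocyte, T and NK cell and erythroid sums are higher on muscle SP arrays 1, 2 and 3 than on 4 and 5, whereas the endothelial and matrix sums of the 5 muscle SP arrays lie close together.

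In the fit with limma, 1378 of 7295 genes were higher in muscle SP (18.9%) and 1632 were lower (22.4%), each gene standing for its brightest probe set. Among the 10310 probe sets tested the counts were 1767 (17.1%) and 2186 (21.2%). A pass means a Benjamini-Hochberg adjusted p under 0.05 over all probe sets tested. The 2 directions differed in size. At least 2-fold, 978 genes were higher and 883 lower, at least 8-fold 233 and 95, and at least 32-fold 55 and 10. The values of the groups did not overlap for 12.7% of genes with muscle SP above and for 13.4% with bone marrow SP above. For 3565 genes (48.9%) the 95% interval of the difference lay within 2-fold either way. The median log2 difference of all genes was -0.11 and the typical standard error 0.24. Over probe sets the median was -0.11, against -0.27 with no further normalization of the arrays and -0.07 with median scaling. Of the calls, 44.7% were higher in muscle SP, against 36.1% and 51.4% under those scalings, and no call changed direction. Fewer cells of a type and less RNA per cell cannot be told apart in these sorted bulk samples.

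**Figure D2:**
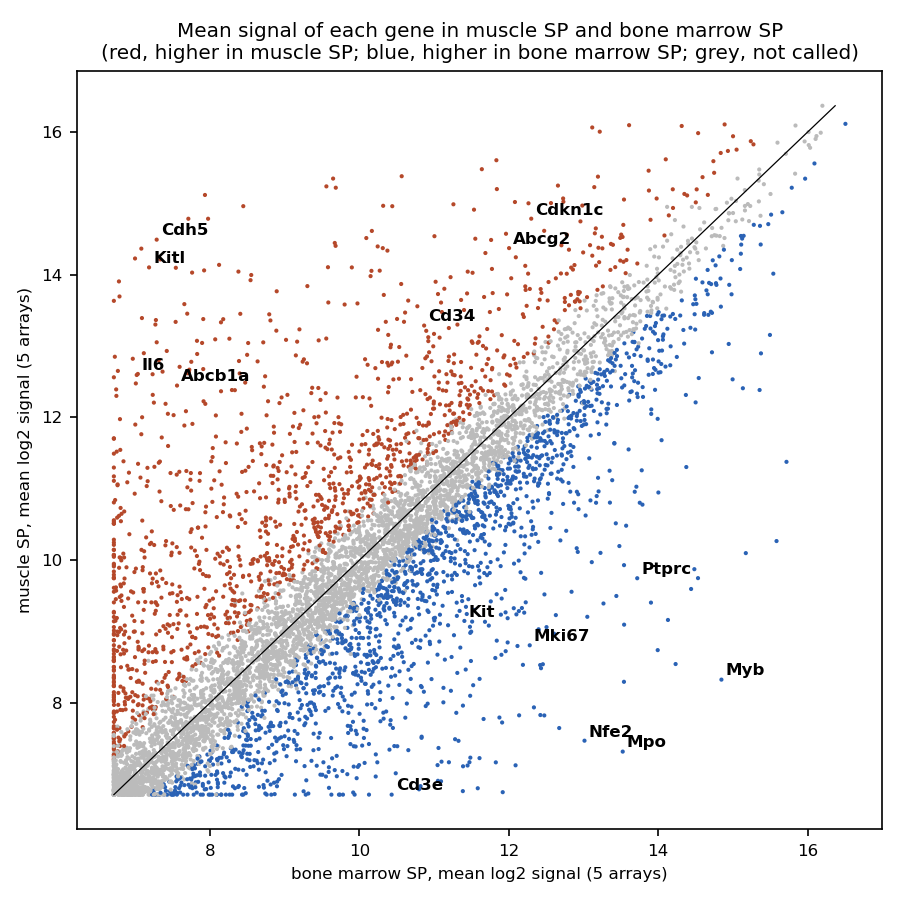
Mean log2 signal of each of 7295 genes on the 5 bone marrow SP arrays (x axis) and the 5 muscle SP arrays (y axis), with the line of equal signal. Genes higher in muscle SP by limma are red, genes higher in bone marrow SP blue and the rest grey, and the red points reach farther from the line than the blue ones.

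The 12 genes with the largest excess in muscle SP are given first. Where at least 4 of the 5 arrays of the lower group and none of the higher group lay at the floor, the fold is written as at least its size, and with fewer such arrays it still depends on the floor. Col1a2, a chain of type I collagen, read 14.77, 14.62, 14.74, 13.85 and 13.85 on the muscle SP arrays and 6.71, 8.55, 6.71, 6.71 and 6.71 on the bone marrow SP arrays. It was at least 156-fold higher in muscle SP (log2 7.29 ± 0.29, limma adjusted p = 7.3e-15). Every muscle SP array lay far above every bone marrow SP array, and bone marrow SP 2 was the one above the floor. The Col1a2 fold was 326 with the floor at the 10th percentile and 76.7 at the 40th. Igfbp3, which binds insulin-like growth factors, was 150.5-fold higher (log2 7.23 ± 0.26, adjusted p = 1.0e-15), and 95.3-fold without muscle SP 1, 2 and 3, with 3 bone marrow SP arrays at the floor. The order of these genes changed with the floor. At the 10th percentile Ackr3 (318-fold) and Meox2 (280-fold) exceeded Igfbp3 (254-fold). Cdh5, the adhesion protein of endothelial junctions, had 6.71, 9.14, 6.71, 6.71 and 7.15 on the bone marrow SP arrays and was 148-fold higher in muscle SP (log2 7.21 ± 0.33, adjusted p = 6.4e-14). Cav1, which forms the membrane pits called caveolae, read 15.22, 15.28, 14.96, 15.17 and 14.95 in muscle SP and 7.66, 10.18, 6.95, 7.31 and 7.56 in bone marrow SP, a 146-fold excess. Its dimmer second probe set had a log2 difference of 0.50, and that of Col1a2 had -0.27, so for both genes the probe sets disagreed. Ackr3, a receptor that takes up the chemokine CXCL12, was at 13.79, 14.24, 13.97, 13.65 and 13.87 against 6.71, 7.05, 6.71, 6.71 and 6.71 (log2 7.13 ± 0.17, adjusted p = 1.1e-18). Meox2, a homeobox factor of vessels and muscle precursors, was at the floor on all bone marrow SP arrays and at 13.34, 13.40, 13.64, 13.84 and 13.96 in muscle SP, at least 121-fold higher. The other genes of the 12 largest were Sparc, Kitl, Sparcl1, Acta2, Cpe and Fmo1, with log2 differences from 6.56 to 7.08.

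The bases before the transcription start are shown for 2 genes of these largest muscle SP differences whose promoter holds one of 4 short motifs, with the motif in capitals. The sequences are RefSeq's for the mouse build GRCm38.p6, each on the plus strand and read toward the start.
Cav1 promoter, chr6:17306085-17306334: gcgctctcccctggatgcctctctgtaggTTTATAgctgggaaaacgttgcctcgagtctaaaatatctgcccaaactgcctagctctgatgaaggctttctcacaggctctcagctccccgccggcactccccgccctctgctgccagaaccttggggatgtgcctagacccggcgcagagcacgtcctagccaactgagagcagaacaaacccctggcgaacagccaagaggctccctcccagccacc
Ackr3 promoter, chr1:90203730-90203979: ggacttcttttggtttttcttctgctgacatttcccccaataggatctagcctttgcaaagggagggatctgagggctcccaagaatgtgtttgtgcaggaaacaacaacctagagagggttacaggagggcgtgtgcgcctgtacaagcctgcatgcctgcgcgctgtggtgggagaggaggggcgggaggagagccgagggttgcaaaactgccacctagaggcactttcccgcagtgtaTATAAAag
The capitals mark the TATA box letters TATAAA, which in Cav1 lies on the minus strand at -221 and so appears as its reverse complement, and in Ackr3 lies at -8 on the plus strand. TATAAA was found on either strand in 12.97% of the 27025 RefSeq promoters and in 8.68% of the 5840 promoters of tested genes that could be matched.

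Endothelial genes were higher in muscle SP as a rule, beside 18.9% of all genes called higher and 22.4% called lower. Of 45 endothelial markers that passed the filter on dim values (57 listed), 38 were higher in muscle SP, 2 were lower and 5 did not pass (median log2 difference 3.27). The groups did not overlap for 36 with muscle SP above, beside 12.7% of all genes, and for 2 with bone marrow SP above, beside 13.4%. Kdr, the main receptor for vascular endothelial growth factor, read 14.85, 14.78, 14.45, 14.10 and 14.05 in muscle SP and 8.69, 9.83, 9.84, 9.81 and 10.18 in bone marrow SP, 27.4-fold higher (log2 4.78 ± 0.25, adjusted p = 4.5e-13). Bone marrow SP 1 was the lowest of its group, and no bone marrow array was near the floor. Flt1, the decoy receptor for the same ligand, was 64.8-fold higher and Tek, the angiopoietin receptor, 27.3-fold higher. Vwf, the clotting factor stored in endothelium and platelets, read 12.96, 14.06, 14.14, 15.56 and 15.15 against 8.97, 10.89, 9.20, 11.39 and 11.12, 16.7-fold higher, which was 32.97-fold without muscle SP 1, 2 and 3 and 10.6-fold without muscle SP 4 and 5. The members below bone marrow SP were Lyl1 (log2 -2.26 ± 0.21) and Tal1 (log2 -1.24 ± 0.28), transcription factors that vessels share with blood precursors. Pecam1, the adhesion protein CD31 of endothelium and of many blood cells, read 11.18, 9.78, 9.57, 10.07 and 9.73 and 10.91, 10.10, 10.34, 10.56 and 10.81, overlapping values that did not pass (log2 -0.48 ± 0.27, adjusted p = 0.18), although it passed without muscle SP 1 (log2 -0.76, adjusted p = 0.011).

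Genes of capillary lipid handling went with them, beside 18.9% of all genes called higher. Of 16 caveolae and lipid uptake genes, 15 were higher in muscle SP, 1 was lower and 0 did not pass (median log2 difference 3.57). Aqp1, a water channel of capillaries and red cells, was 77.2-fold higher (log2 6.27 ± 0.35), with 0.53 for its second probe set. Lpl, the lipase that frees fatty acids from lipoproteins, was 50.7-fold higher and Fabp4, a fatty acid carrier, 7.62-fold. The second Lpl probe set had a log2 difference of 2.84. Vldlr, a lipoprotein receptor, was the lower member (log2 -0.999 ± 0.30, adjusted p = 0.0116), a call lost without muscle SP 1, 2 and 3 (adjusted p = 0.244), and its second probe set had 0.06.

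Genes of mural cells, the contractile cells around vessels, were higher as a group. Among 19 measured, 15 were higher and 1 lower (median log2 difference 2.76), beside 18.9% of all genes called higher. Acta2, smooth muscle actin, read 13.96, 14.29, 13.61, 14.54 and 14.67 against 7.02, 8.63, 7.60, 6.71 and 6.71, 118-fold higher (log2 6.88 ± 0.34, adjusted p = 1.8e-13). Myh11, smooth muscle myosin, was at the floor on 4 of 5 bone marrow SP arrays and at least 69.9-fold higher, and Notch3, a receptor of mural cells, read 11.50, 11.07, 11.80, 12.94 and 13.13 against 8.29, 7.25, 6.97, 7.12 and 8.75. In contrast with the blood genes, Notch3 and Myh11 were highest on muscle SP 4 and 5, and their excess was 40.9-fold and 187-fold without muscle SP 1, 2 and 3 and 13.7-fold and 36.3-fold without muscle SP 4 and 5. Pdgfrb, the receptor for platelet-derived growth factor of mural cells, was at the floor in bone marrow SP and at least 9.32-fold higher, and at least 16.99-fold without muscle SP 1, 2 and 3. Angpt1, a ligand of Tek, was the lower member, at the floor on all muscle SP arrays and at least 1.74-fold lower.

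Of 50 fibroblast and matrix markers, 42 were higher in muscle SP, 0 were lower and 8 did not pass (median log2 difference 2.82). Over all genes 18.9% were called higher. Dcn, decorin, a small proteoglycan of connective tissue, was 91.6-fold higher and Ccn1, a matrix-bound signalling protein, 79.1-fold. Pdgfra, a receptor of connective tissue cells, read 11.39, 11.44, 11.40, 11.33 and 11.24 against 7.56, 8.43, 8.39, 7.70 and 8.97, 8.87-fold higher (log2 3.15 ± 0.30, adjusted p = 1.4e-08), with no overlap, and its second probe set had -0.32. Basement membrane genes differed in one direction among those called. Of 17 measured, 16 were higher in muscle SP, 0 were lower and 1 did not pass (median log2 difference 3.85), led by Sparc (135-fold), the laminin chains Lamb2 (at least 57.99-fold) and Lama5 (33.9-fold) and the collagen Col4a1 (28.2-fold).

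**Figure D3:**
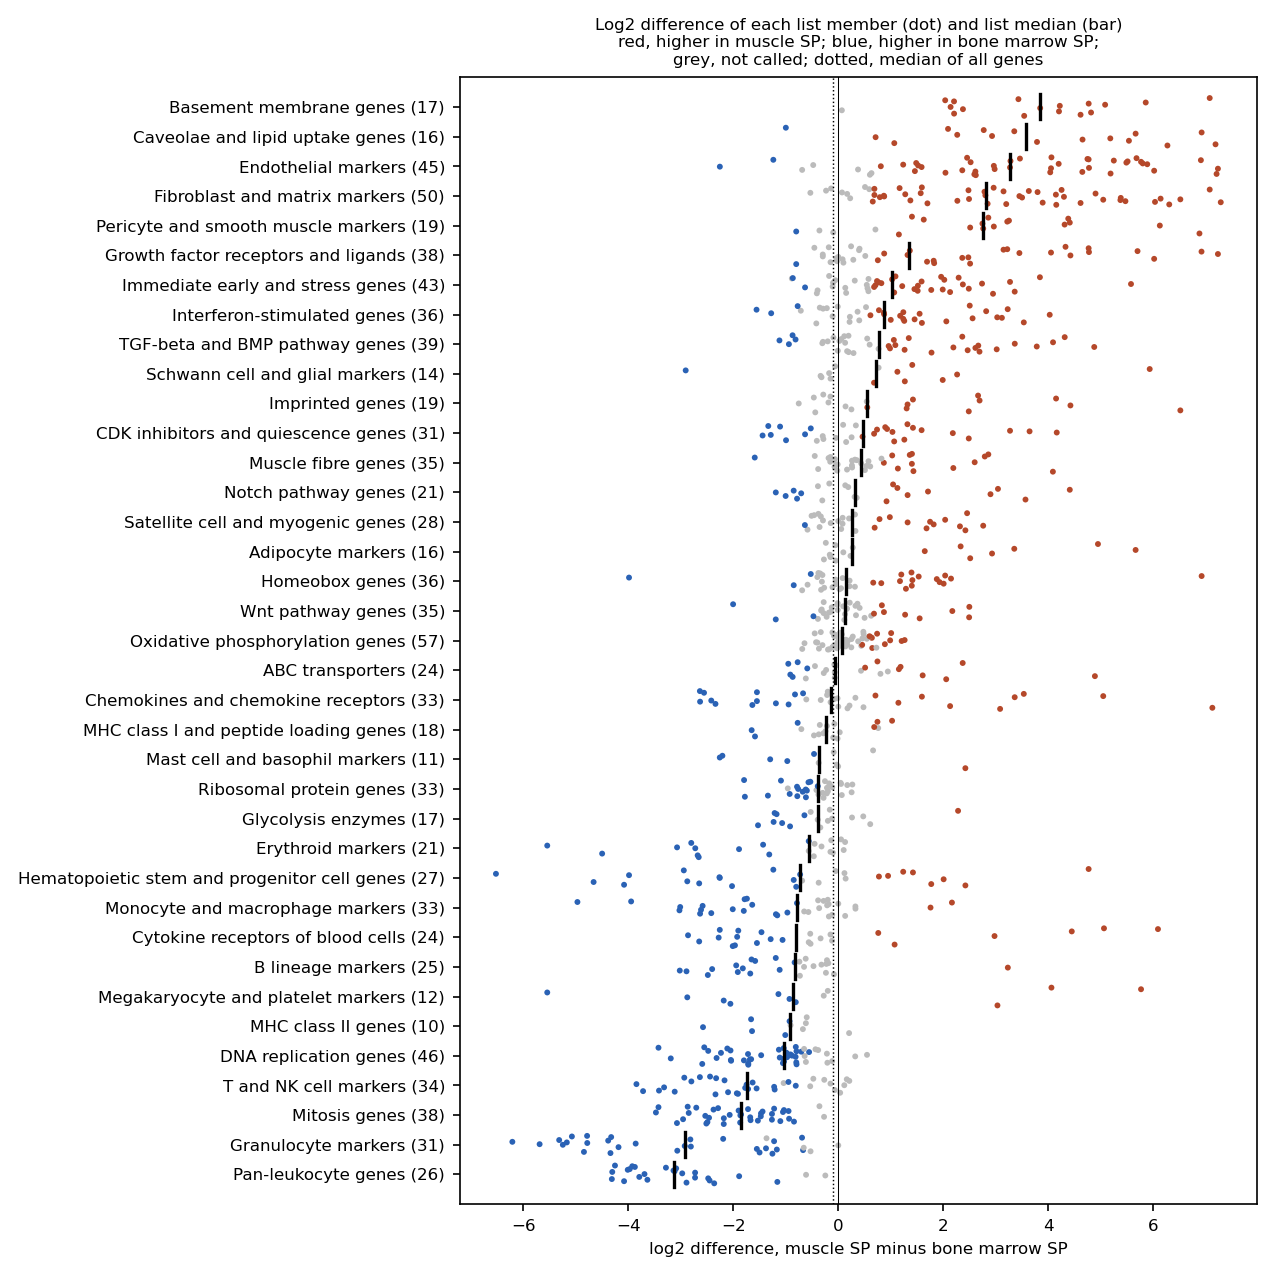
Log2 difference, muscle SP minus bone marrow SP, of each member of 37 gene lists that passed the filter (dots; the number in brackets), with the list median as a bar and the median of all genes as a dotted line. Basement membrane, caveolae, endothelial and matrix lists lie to the right, and pan-leukocyte, granulocyte, mitosis and T and NK cell lists to the left.

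Kitl and Cxcl12, ligands that keep blood stem cells in their niche, were higher in muscle SP, and their receptors differed by member. Kitl, stem cell factor, read 14.29, 14.28, 13.93, 13.86 and 14.15 in muscle SP and 6.71, 8.31, 6.79, 6.71 and 7.39 in bone marrow SP, 121-fold higher (log2 6.92 ± 0.23, adjusted p = 4.0e-16). Its receptor Kit read 9.96, 9.64, 9.40, 8.17 and 8.56 and 11.44, 11.31, 11.25, 11.60 and 11.42, 4.78-fold lower in muscle SP (log2 -2.26 ± 0.29, adjusted p = 1.2e-06), and 8.21-fold lower without muscle SP 1, 2 and 3. Neither gene overlapped between the groups, beside 12.7% of all genes with muscle SP above and 13.4% with bone marrow SP above. Cxcl12, the chemokine that holds blood stem cells in the marrow, was at 13.16, 13.88, 14.14, 13.11 and 12.98 against 8.42, 8.90, 7.93, 8.45 and 8.31, 33.1-fold higher (log2 5.05 ± 0.29), and its other probe sets had 4.74 and 4.85. The receptor Cxcr4, picked after its values were seen, read 7.98, 8.95, 9.22, 7.54 and 8.28 and 9.62, 9.52, 10.20, 10.28 and 10.10, 2.93-fold lower in muscle SP (adjusted p = 1.8e-04), whereas Ackr3, the other receptor for Cxcl12, was higher in muscle SP, as given above. Of 33 chemokine genes and receptors, 9 were higher in muscle SP, 12 were lower and 12 did not pass (median log2 difference -0.15). Over all genes 18.9% were called higher and 22.4% lower. Cxcl9, a ligand induced by interferon, was at least 11.6-fold higher, while the receptors Cxcr3 (5.89-fold) and Ccr2 (5.35-fold) of lymphocytes and monocytes were lower, Ccr2 9.11-fold without muscle SP 1, 2 and 3. Only 7 chemokine genes and receptors were lower when muscle SP 4 and 5 were left out, in place of 12. Of 38 growth factors and receptors, 22 were higher in muscle SP, 1 was lower and 15 did not pass (median log2 difference 1.34), with Igf2, a fetal growth factor, at 15.41, 14.42, 14.33, 14.21 and 14.19 against 10.16, 10.56, 10.21, 9.19 and 10.33, 21.5-fold higher, and Nrp1, a co-receptor of vascular growth factor, 52.04-fold higher. Muscle SP 1 was the highest array for Igf2.

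Il6 and the signalling chains Il6st, Lifr and Osmr, picked after their values were seen, were higher in muscle SP, while the binding chain Il6ra was lower (2.76-fold, adjusted p = 0.00135). Interleukin 6 binds Il6ra and signals through the shared chain Il6st, which also pairs with the receptors for leukaemia inhibitory factor and oncostatin M, and Socs3 is the feedback inhibitor that this signal induces. Il6 read 12.16, 12.90, 12.04, 12.73 and 13.21 in muscle SP and 6.71, 6.71, 6.71, 8.32 and 6.71 in bone marrow SP, at least 47.7-fold higher (log2 5.58 ± 0.29, adjusted p = 3.8e-13), with bone marrow SP 4 as the one array of its group above the floor. The Il6 fold was 76.5 with the floor at the 10th percentile and 23.4 at the 40th. Il6st was at 13.65, 14.38, 14.24, 15.46 and 15.34 against 10.20, 10.53, 9.53, 10.32 and 10.25, 21.8-fold higher, though its second probe set had a log2 difference of 0.05. Lifr read 13.36, 12.89, 12.58, 14.05 and 13.96 against 6.76, 7.59, 6.71, 7.37 and 7.94, 68.2-fold higher, with 2.09, 4.05 and 3.20 for its other probe sets. Osmr, at 12.42, 12.72, 13.22, 13.08 and 12.998 against 8.19, 7.58, 7.57, 8.02 and 7.77, was 33.4-fold higher, and Socs3, at 15.55, 15.46, 15.58, 15.53 and 15.28 against 11.45, 11.53, 11.54, 11.48 and 12.20, 14.3-fold. The groups overlapped for none of Il6, Il6st, Lifr, Osmr and Socs3, beside 12.7% of all genes with no overlap and muscle SP above. Without muscle SP 1, 2 and 3 the Il6st excess was 37.7-fold and that of Lifr 106-fold. Of the whole list of 24 cytokine receptors of blood cells, 6 were higher in muscle SP, 12 were lower and 6 did not pass (median log2 difference -0.81), and those lower were led by Il1r2 (7.27-fold), a decoy receptor for interleukin 1, Flt3 (6.28-fold), a receptor of early blood progenitors, and Il17ra (4.85-fold). Over all genes 18.9% were called higher and 22.4% lower. Without muscle SP 1, 2 and 3 Il1r2 was 11.1-fold lower, and the second Flt3 probe set had -0.57.

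Many fast-responding and interferon-induced transcripts were higher in muscle SP. Of 43 immediate early and stress genes, 27 were higher in muscle SP, 2 were lower and 14 did not pass (median log2 difference 1.03), beside 18.9% of all genes called higher. Klf2, an endothelial factor that responds to blood flow, was 9.66-fold higher, and 5.89-fold without muscle SP 1, 2 and 3. Egr1, an early growth response factor, was 3.41-fold higher, but its second probe set had -0.53, and Rgs2 was 1.82-fold lower. Of 36 interferon-stimulated genes, 21 were higher in muscle SP, 3 were lower and 12 did not pass (median log2 difference 0.87). Iigp1, an interferon-induced GTPase against intracellular parasites, was 16.3-fold higher, and Ifit2, an antiviral protein, read 11.28, 11.55, 11.72, 10.71 and 10.95 against 7.88, 8.13, 8.71, 7.57 and 8.34, 8.68-fold higher with no overlap. Without muscle SP 1, 2 and 3 the interferon counts were 15 higher and 6 lower.

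Signalling pathways of the vessel wall differed by member, beside 18.9% of all genes called higher and 22.4% called lower. Of 21 Notch pathway genes, 9 were higher in muscle SP, 5 were lower and 7 did not pass (median log2 difference 0.31). The ligands Dll1 (11.8-fold) and Jag2 (at least 7.46-fold, and 4.19-fold without muscle SP 1, 2 and 3) and the receptor Notch3 (21.3-fold) were higher. Notch4, an endothelial receptor, was at the floor in bone marrow SP and at least 8.24-fold higher, but its second probe set was called the other way (log2 -0.73). The Notch4 bound was 3.60-fold without muscle SP 1, 2 and 3 and 14.3-fold without muscle SP 4 and 5, and either fit had 3 lower Notch pathway genes in place of 5. Mfng, an enzyme that modifies Notch receptors, was 2.28-fold lower. Of 39 TGF-beta and BMP pathway genes, 19 were higher in muscle SP, 4 were lower and 16 did not pass (median log2 difference 0.77). Id1, a target of BMP signals, read 13.69, 14.01, 14.08, 12.96 and 13.18 against 8.82, 9.34, 9.82, 10.48 and 10.55, 13.8-fold higher (log2 3.78 ± 0.33, adjusted p = 2.6e-09), and the ligand Tgfb2 was 19.9-fold higher. Of 35 Wnt pathway genes, 8 were higher in muscle SP, 3 were lower and 24 did not pass (median log2 difference 0.13), so most members did not pass. The shares of Wnt genes called higher and of Notch genes called lower lay near those of all genes. Among the Wnt genes that passed, the receptor Fzd4 was 4.51-fold higher, with 1.56 and 0.30 for its other probe sets, and the ligand Wnt11 4.01-fold lower.

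Homeobox and imprinted genes, both known for position and growth in development, leaned to muscle SP, beside 18.9% of all genes called higher. Of 36 homeobox genes, 15 were higher in muscle SP, 3 were lower and 18 did not pass (median log2 difference 0.15). Besides Meox2, the genes Hoxd8 (4.43-fold), Msx1 (4.10-fold) and Hoxb4 (4.02-fold) were higher. Hoxb4 is also known as a factor that expands blood stem cells, and was 6.53-fold higher without muscle SP 1, 2 and 3. Meis1, a partner of Hox proteins in blood stem cells, read 6.71, 6.71, 6.71, 6.71 and 7.31 in muscle SP and 9.66, 10.91, 10.68, 11.13 and 11.71 in bone marrow SP, at least 15.9-fold lower (log2 -3.99 ± 0.27, adjusted p = 5.2e-11). Muscle SP 5 alone of its group was above the floor, and the fold was 7.08 with the floor at the 40th percentile. Of 19 imprinted genes, 10 were higher in muscle SP, 0 were lower and 9 did not pass (median log2 difference 0.55), with Peg3 at 13.74, 12.72, 12.16, 12.40 and 12.90 against 7.92, 8.89, 8.03, 8.83 and 9.50, 17.7-fold higher, and with 0.68 and 1.85 for its other probe sets. Mest, another paternally expressed gene, was at least 6.46-fold higher.

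The largest excess in bone marrow SP was that of Myb. Myb, a transcription factor that blood progenitors require, read 14.70, 14.83, 14.66, 15.04 and 15.01 on the bone marrow SP arrays and 8.62, 10.15, 8.96, 6.71 and 7.17 on the muscle SP arrays. It was 91.9-fold lower in muscle SP (log2 -6.52 ± 0.45, adjusted p = 7.2e-11), and 239.7-fold without muscle SP 1, 2 and 3 and 48.5-fold without muscle SP 4 and 5. Mpo, myeloperoxidase of the granulocyte line, was at 13.71, 13.55, 13.40, 13.53 and 13.43 and 7.28, 8.94, 6.93, 6.71 and 6.71, 74.03-fold lower in muscle SP (log2 -6.21 ± 0.36, adjusted p = 3.4e-12), with muscle SP 2 as the highest of its group, and 112.5-fold lower without muscle SP 1, 2 and 3. The second Mpo probe set had -1.76. Nfe2, a factor of red cell and platelet precursors, read 13.003, 13.50, 13.13, 12.998 and 12.43 and 6.83, 8.19, 8.38, 6.79 and 7.16, 46.7-fold lower. Ltf, lactoferrin of neutrophil granules, was 51.6-fold lower, at 15.32, 14.41, 15.002, 14.13 and 12.30 and 8.20, 11.21, 9.87, 6.71 and 6.71. Its log2 difference was -6.36 without muscle SP 2, and it was 184-fold lower without muscle SP 1, 2 and 3 and 22.2-fold without muscle SP 4 and 5. For Ngp the bone marrow SP values were 15.95, 15.62, 15.87, 15.55 and 14.93, and the difference of 39.9-fold (adjusted p = 3.3e-04) was 469-fold without muscle SP 1, 2 and 3 and 7.72-fold without muscle SP 4 and 5. Its log2 difference was -6.22 without muscle SP 2 and -4.43 without muscle SP 4 or 5. The probe sets of Myb and Mpo can cross-hybridise with related sequences, by the suffix of their names.

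The promoters shown for this side are those of Mpo and Ltf, with the motif in capitals, from RefSeq for GRCm38.p6 and on the plus strand.
Mpo promoter, chr11:87793534-87793783: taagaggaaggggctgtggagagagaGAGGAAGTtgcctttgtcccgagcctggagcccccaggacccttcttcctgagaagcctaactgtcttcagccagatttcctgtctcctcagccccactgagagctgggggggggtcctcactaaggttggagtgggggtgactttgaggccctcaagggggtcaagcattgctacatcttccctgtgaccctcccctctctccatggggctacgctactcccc
Ltf promoter, chr9:111019042-111019291: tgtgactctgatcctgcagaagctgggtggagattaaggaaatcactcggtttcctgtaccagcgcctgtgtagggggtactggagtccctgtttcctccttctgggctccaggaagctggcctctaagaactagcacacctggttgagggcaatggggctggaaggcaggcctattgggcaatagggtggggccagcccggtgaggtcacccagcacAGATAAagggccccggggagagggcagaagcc
The capitals in Mpo mark GAGGAAGT, a motif of the blood factor PU.1, at -224, and those in Ltf mark AGATAA, letters bound by GATA factors, at -32. On both strands GAGGAAGT was found in 4.95% of the 707 matched promoters of genes at least 2-fold higher in bone marrow SP, in 2.16% of the 5840 of tested genes and in 2.44% of the 27025 of RefSeq. AGATAA was found in 6.79%, 6.06% and 10.3% of the same sets. AP-1, searched as TGACTCA, was found in 3.68%, 3.51% and 4.43%, and TATAAA in 9.90%, 8.68% and 12.97%. None of the 4 motifs contains another. For genes at least 2-fold higher in muscle SP this check is void, because only 749 of 978 (76.6%) could be matched to a promoter by symbol, under the 80% set as the minimum, which the bone marrow SP set (80.07%) and the tested genes (80.05%) only just passed. A match describes the letters and shows no binding. Spi1, the gene of PU.1 itself, read 10.63, 10.07, 9.83, 10.77 and 9.57 in bone marrow SP and 9.59, 8.29, 8.34, 7.59 and 8.36 in muscle SP, 3.34-fold lower in muscle SP (adjusted p = 3.6e-05), with bone marrow SP 5 and muscle SP 1 almost equal.

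Most granulocyte genes were lower in muscle SP, beside 22.4% of all genes called lower. Of 31 granulocyte markers, 0 were higher in muscle SP, 27 were lower and 4 did not pass (median log2 difference -2.93). Lcn2, a neutrophil protein that withholds iron from bacteria, was 38.01-fold lower, S100a8, a calcium-binding protein of neutrophils, 33.7-fold, and Mmp9, a collagenase of neutrophil granules and at the floor on 4 of 5 muscle SP arrays, at least 36.1-fold. These values depended on single arrays. Without muscle SP 2 the log2 differences of Lcn2 and S100a8 were -5.91 and -5.75, and without bone marrow SP 5 that of Mmp9 was -5.77. Without muscle SP 1, 2 and 3 Lcn2 was 73.2-fold and S100a8 128-fold lower, and without muscle SP 4 and 5 24.6-fold and 13.9-fold. The Mmp9 fold was 87.9 with the floor at the 10th percentile and 15.2 at the 40th. The second probe set of Lcn2 had -0.57 and that of Mmp9 -2.10. Of 26 pan-leukocyte genes, 0 were higher in muscle SP, 24 were lower and 2 did not pass (median log2 difference -3.13), with the same counts without muscle SP 1, 2 and 3 and without muscle SP 4 and 5. Ptprc was 15.7-fold lower, from 10.20, 10.70, 11.66, 7.58 and 8.59 in muscle SP, and 49.7-fold without muscle SP 1, 2 and 3 and 7.30-fold without muscle SP 4 and 5. Coro1a, an actin regulator of blood cells, and Lcp2, an adaptor of their antigen receptors, were 19.9-fold and 19.8-fold lower, and Coro1a was 43.01-fold lower without muscle SP 1, 2 and 3 and 11.9-fold without muscle SP 4 and 5. The second Ptprc probe set had -1.28.

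Genes known from blood stem and progenitor cells did not all lie on the bone marrow side. Over all genes 18.9% were called higher and 22.4% lower in muscle SP. Of 27 genes of this list measured, 8 were higher in muscle SP, 14 were lower and 5 did not pass (median log2 difference -0.73). Those lower in muscle SP were led by Myb, Gfi1, a repressor that restrains stem cell division (25.3-fold), Cd48 (16.9-fold, and 27.8-fold without muscle SP 1, 2 and 3), Meis1 and Runx1, a master factor of blood formation, which read 7.96, 7.51, 6.71, 6.87 and 7.33 against 10.09, 10.43, 9.83, 9.96 and 10.78 (7.69-fold lower, adjusted p = 4.2e-09). Cd34, a sialomucin of blood progenitors and of endothelium, read 12.86, 13.62, 13.40, 13.48 and 13.07 in muscle SP and 10.85, 11.12, 10.53, 10.86 and 10.97 in bone marrow SP, 5.36-fold higher (log2 2.42 ± 0.25, adjusted p = 3.3e-08), and 1.21 by its second probe set. Procr, the protein C receptor used to enrich blood stem cells and also found on endothelium, read 13.58, 13.64, 12.71, 14.19 and 14.13 against 11.94, 12.54, 12.39, 12.40 and 12.81, 2.36-fold higher. Gata2, a factor shared by blood stem cells and endothelium, read 12.70, 11.97, 11.36, 11.61 and 11.25 and 11.63, 11.86, 11.91, 12.23 and 13.14, overlapping values whose difference had a 95% interval of -0.98 to 0.23 on the log2 scale (adjusted p = 0.34). Hoxa9 was 1.80-fold lower (adjusted p = 0.00387). Ly6a, which is also used to define these cells, had no probe set with a single symbol here.

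**Figure D4:**
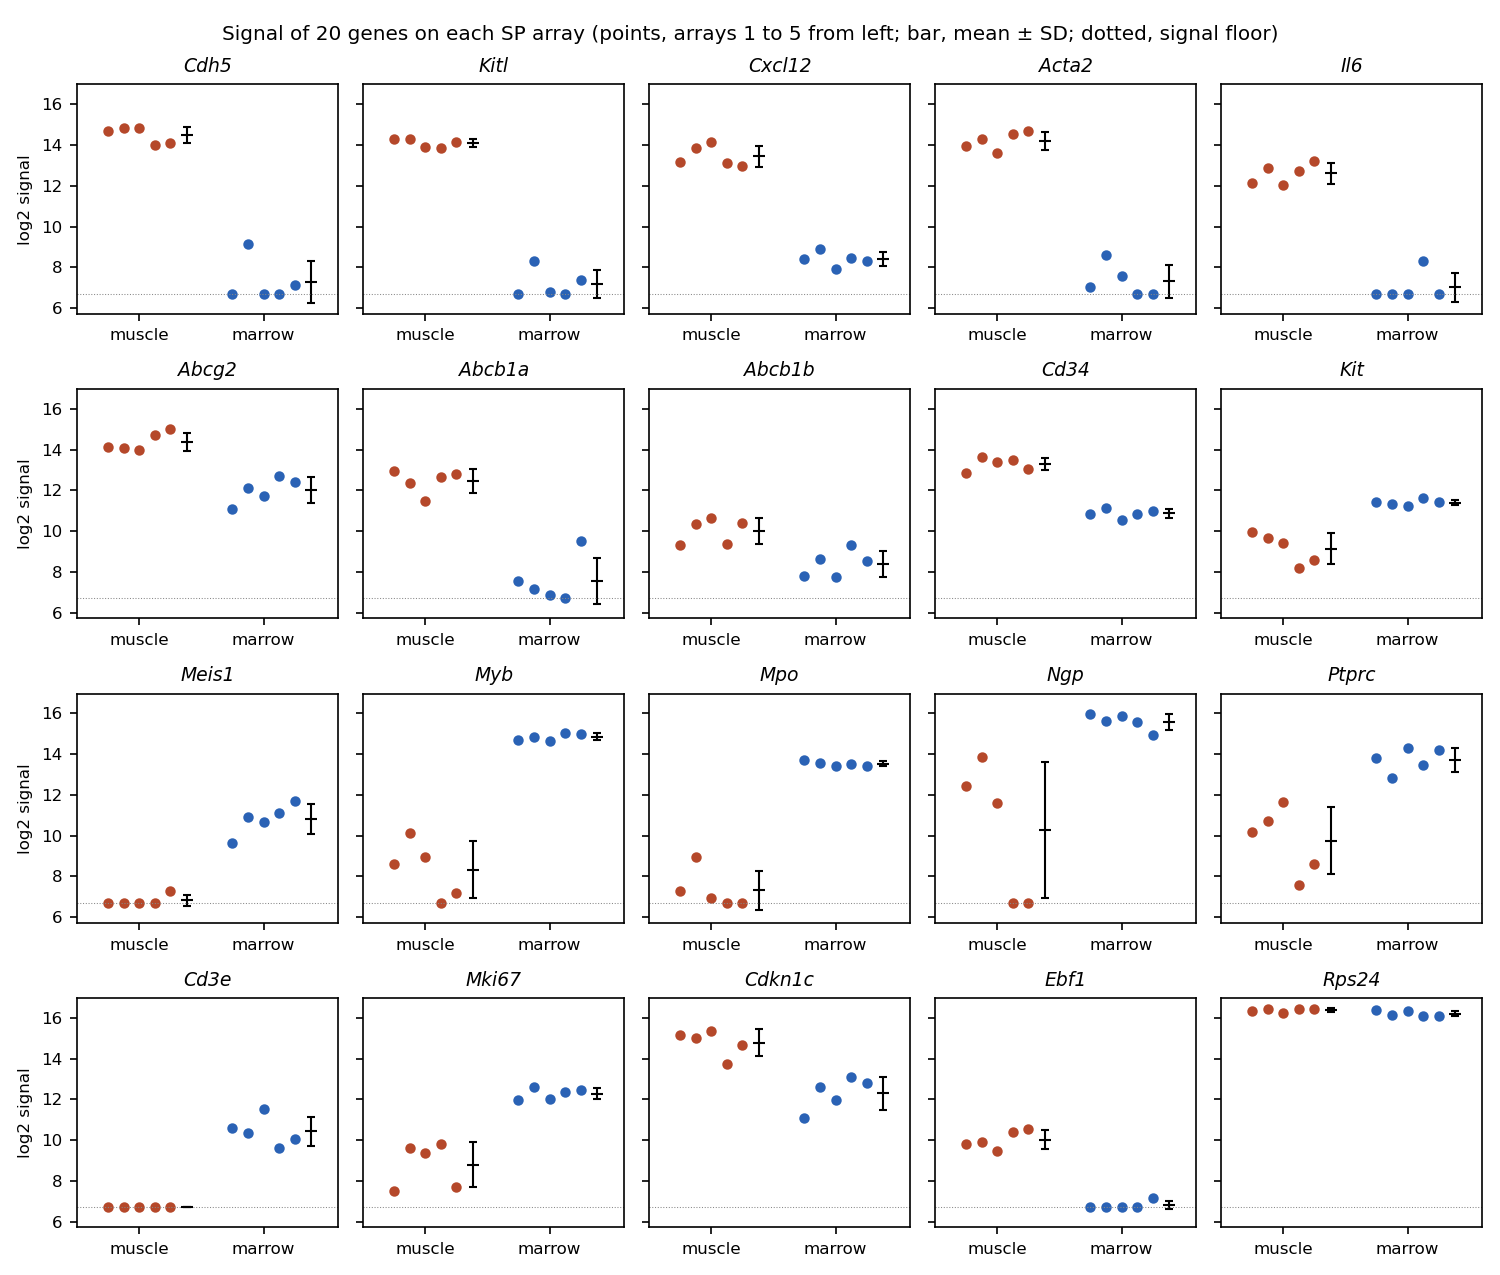
Log2 signal of 20 genes on each muscle SP array (red) and bone marrow SP array (blue), replicates 1 to 5 from left to right, with mean ± SD beside each group (n = 5) and the signal floor dotted. Ngp and Ptprc fall to low values on muscle SP 4 and 5, Cd3e sits at the floor on every muscle SP array, and Rps24 is level across all 10 arrays.

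The pump genes behind the dye exclusion differed between the 2 side populations. Abcg2, the main Hoechst pump, read 14.13, 14.07, 13.96, 14.71 and 14.997 in muscle SP and 11.08, 12.11, 11.71, 12.71 and 12.40 in bone marrow SP, 5.17-fold higher (log2 2.37 ± 0.25, adjusted p = 5.4e-08), with every muscle SP array above every bone marrow SP array. Abcb1a, a multidrug transporter of capillary endothelium, read 12.93, 12.34, 11.49, 12.65 and 12.82 and 7.53, 7.14, 6.89, 6.71 and 9.51, 29.6-fold higher (log2 4.89 ± 0.39, adjusted p = 5.8e-10). Bone marrow SP 5 was the highest of its group for Abcb1a. The paralogue Abcb1b read 9.30, 10.33, 10.63, 9.35 and 10.40 and 7.80, 8.62, 7.75, 9.30 and 8.51, 3.05-fold higher (adjusted p = 1.4e-04), with overlapping ranges. The cholesterol exporter Abca1 was 4.16-fold higher, with 0.40 for its second probe set. Of 24 ABC transporters, 8 were higher in muscle SP, 5 were lower and 11 did not pass (median log2 difference -0.05). Over all genes 18.9% were called higher and 22.4% lower, and the lower ABC transporters lay near that share. These lower ones were small differences, led by Abcg1 (1.94-fold) and Abcb4 (1.88-fold), and were 3 without muscle SP 4 and 5.

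Lymphocyte genes were also lower in muscle SP for the most part, beside 22.4% of all genes called lower. Of 34 T and NK cell markers, 0 were higher in muscle SP, 24 were lower and 10 did not pass (median log2 difference -1.73). Cd3e, a chain of the T cell receptor complex, was at the floor on all 5 muscle SP arrays and at 10.58, 10.33, 11.55, 9.62 and 10.07 on the bone marrow SP arrays, at least 13.2-fold lower. Ctsw, a protease of cytotoxic lymphocytes, read 6.71, 7.54, 9.002, 6.71 and 6.71 and 10.84, 11.06, 11.60, 9.75 and 10.03, 9.98-fold lower, and was 15.4-fold lower without muscle SP 1, 2 and 3. The summed signal of this list was 14.78, 15.36, 16.14, 13.55 and 13.50 on muscle SP 1 to 5 and 16.85, 16.34, 17.15, 16.24 and 16.45 on bone marrow SP 1 to 5 (log2), so muscle SP 3 came close to the bone marrow arrays. Of 25 B lineage markers, 1 was higher in muscle SP, 13 were lower and 11 did not pass (median log2 difference -0.83). Cd72 (8.11-fold) and Blnk (5.60-fold), both parts of B cell receptor signalling, were lower. The higher member was Ebf1, a factor that sets the B cell fate and is also known from fat and mural cells, at 9.82, 9.91, 9.47, 10.41 and 10.54 against 6.71, 6.71, 6.71, 6.71 and 7.16, at least 9.39-fold higher (log2 3.23 ± 0.23, adjusted p = 1.4e-10). Of 10 MHC class II genes, 0 were higher in muscle SP, 5 were lower and 5 did not pass (median log2 difference -0.92), and of 18 class I and peptide loading genes, 3 were higher in muscle SP, 3 were lower and 12 did not pass (median log2 difference -0.23). With all arrays the class I shares lay near the 18.9% of all genes called higher and the 22.4% called lower. The class I counts were 2 higher and 7 lower without muscle SP 1, 2 and 3.

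Markers of other blood lineages were lower in muscle SP in part, beside 22.4% of all genes called lower and 18.9% called higher. Of 21 erythroid markers, 0 were higher in muscle SP, 11 were lower and 10 did not pass (median log2 difference -0.56). Hbb-b2 read 14.55, 14.37, 14.59, 14.97 and 13.40 in bone marrow SP, 8.41-fold above muscle SP, which was 24.5-fold without muscle SP 1, 2 and 3 and 4.12-fold without muscle SP 4 and 5, and Car2, carbonic anhydrase of red cells and osteoclasts, was 22.6-fold lower in muscle SP. Of 33 monocyte and macrophage markers, 2 were higher in muscle SP, 17 were lower and 14 did not pass (median log2 difference -0.79). Lyz2, lysozyme, was 31.3-fold lower, and 171-fold without muscle SP 1, 2 and 3 and 10.1-fold without muscle SP 4 and 5, and its second probe set had 0.05. Its log2 difference was -5.70 without muscle SP 2 and -4.36 without muscle SP 4 or 5. Mpeg1, a pore protein of macrophages, was 15.4-fold lower, and 25.7-fold without muscle SP 1, 2 and 3, whereas the lysosomal proteases Lgmn (4.49-fold) and Ctsl (3.38-fold) were higher in muscle SP. Of 12 megakaryocyte and platelet markers, 3 were higher in muscle SP, 7 were lower and 2 did not pass (median log2 difference -0.87), the higher ones being Selp, Vwf and Alox12, of which the first pair is also endothelial. Of 11 mast cell and basophil markers, 1 was higher in muscle SP, 5 were lower and 5 did not pass (median log2 difference -0.37). Cma1, a chymase of tissue mast cells, was the higher member (5.36-fold), a call lost without muscle SP 1, 2 and 3 (1.44-fold, adjusted p = 0.241), and was 12.9-fold higher without muscle SP 4 and 5.

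Most genes of cell division were lower in muscle SP, and no member of either list was higher. Of 38 mitosis genes, 0 were higher in muscle SP, 36 were lower and 2 did not pass (median log2 difference -1.86), beside 22.4% of all genes called lower, and of 46 DNA replication genes, 0 were higher in muscle SP, 36 were lower and 10 did not pass (median log2 difference -1.04). Mki67, the proliferation marker Ki-67, read 7.50, 9.63, 9.38, 9.80 and 7.71 against 11.96, 12.60, 12.01, 12.38 and 12.44, 11.1-fold lower (log2 -3.47 ± 0.42, adjusted p = 4.7e-07), with -0.39 for its second probe set. Top2a, the topoisomerase of dividing cells, read 8.01, 8.23, 7.80, 8.42 and 7.33 against 10.82, 11.44, 11.14, 11.59 and 11.93, 10.7-fold lower, and Cdk1, the kinase that starts mitosis, was 7.77-fold lower. Mcm5, a part of the replication helicase, read 8.57, 8.84, 9.06, 8.95 and 7.71 against 12.45, 11.93, 11.64, 11.66 and 11.41, 9.14-fold lower, with -0.70 by its second probe set. None of these 4 genes overlapped between the groups, beside 13.4% of all genes with no overlap and bone marrow SP above. Those shown array by array were picked after their values were seen. The mitosis counts were 36 lower without muscle SP 1, 2 and 3 and 35 without muscle SP 4 and 5, so they did not rest on either subset.

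Inhibitors of the cell cycle were mixed, beside 18.9% of all genes called higher and 22.4% called lower. Of 31 CDK inhibitors and quiescence genes, 16 were higher in muscle SP, 7 were lower and 8 did not pass (median log2 difference 0.46). The share called lower lay near that of all genes. Cdkn1c, the inhibitor p57 that keeps stem cells out of division, read 15.17, 15.01, 15.34, 13.72 and 14.69 in muscle SP and 11.07, 12.59, 11.96, 13.08 and 12.80 in bone marrow SP, 5.60-fold higher (log2 2.49 ± 0.36, adjusted p = 6.8e-06). Its lowest muscle SP array, replicate 4, lay above the highest bone marrow SP array by less than 1 log2 unit. Gas1 (17.9-fold) and Gas6 (12.5-fold), named for growth arrest, were higher, while the pocket proteins Rbl2 (2.52-fold) and Rbl1 (2.16-fold) and Foxo3, a factor of stem cell quiescence (2.44-fold), were lower.

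Genes of the muscle lineage itself differed by member, beside 18.9% of all genes called higher and 22.4% called lower. Of 28 genes of satellite cells and myogenesis, 12 were higher in muscle SP, 1 was lower and 15 did not pass (median log2 difference 0.26). Myf5, a factor of muscle progenitors, read 7.77, 8.34, 7.25, 6.71 and 7.42 in muscle SP and the floor on all bone marrow SP arrays, 1.72-fold higher on these floored values (adjusted p = 0.0197), a call lost without muscle SP 2 (adjusted p = 0.076) and without muscle SP 1, 2 and 3 (adjusted p = 0.393). Myod1, the factor of committed myoblasts, read 9.88, 9.04, 9.25, 9.03 and 8.98 and 9.72, 8.90, 9.01, 8.92 and 9.22, and the 95% interval of its difference was -0.32 to 0.48 on the log2 scale. Pax7, the defining factor of satellite cells, had no probe set with a single symbol here. The members that were higher included Des, the filament protein of all muscle types (6.78-fold), Vcam1 (5.48-fold) and Cd34, which vessels also express. Vcam1 was 11.4-fold higher without muscle SP 1, 2 and 3 and 3.35-fold without muscle SP 4 and 5. Of 35 muscle fibre genes, 12 were higher in muscle SP, 1 was lower and 22 did not pass (median log2 difference 0.44), and the counts were 9 higher without muscle SP 1, 2 and 3 and 16 without muscle SP 4 and 5. Acta1 read 6.71, 6.71, 6.71, 7.84 and 7.37 in bone marrow SP, and its 17.02-fold excess was 5.23-fold without muscle SP 1, 2 and 3 and 37.4-fold without muscle SP 4 and 5. Tnnc2, fast troponin C, read 12.94, 12.52, 12.02, 9.37 and 9.67 and 7.83, 8.65, 8.59, 9.06 and 8.44, 6.92-fold higher, and its call was lost without muscle SP 1, 2 and 3 (2.01-fold, adjusted p = 0.107), with 15.8-fold without muscle SP 4 and 5. Myom1 of the same list moved the other way. Its log2 difference was 2.60, and it was 13.9-fold higher without muscle SP 1, 2 and 3 and 3.48-fold without muscle SP 4 and 5.

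Nerve sheath and fat cell genes had a few high members each, beside 18.9% of all genes called higher. Of 14 Schwann cell and glial markers, 7 were higher in muscle SP, 1 was lower and 6 did not pass (median log2 difference 0.72). Pmp22, a membrane protein of myelin and of endothelium, was 61.1-fold higher, and 31.3-fold without muscle SP 1, 2 and 3 and 95.5-fold without muscle SP 4 and 5. Of these markers, 4 in place of 7 were higher when muscle SP 1, 2 and 3 were left out. Sox2, a stem cell factor of glia, read 10.41, 9.17, 7.56, 7.87 and 6.71 and 6.71, 6.71, 6.71, 7.84 and 6.71, 2.66-fold higher (adjusted p = 0.0226), a call lost without muscle SP 1 (adjusted p = 0.0735), without muscle SP 2 (adjusted p = 0.0668), without muscle SP 1, 2 and 3 (1.28-fold, adjusted p = 0.547) and with the floor at the 40th percentile (adjusted p = 0.127). Without muscle SP 4 and 5 Sox2 was 4.32-fold higher. The defining Schwann cell genes Sox10 and Mag did not pass. Mbp, which blood cells transcribe in part from the same locus as myelin basic protein, was 7.50-fold lower, and 11.6-fold without muscle SP 1, 2 and 3, but its second probe set was called the other way (log2 3.65). Of 16 adipocyte markers, 7 were higher in muscle SP, 0 were lower and 9 did not pass (median log2 difference 0.25), with Thrsp, a regulator of fat synthesis (30.9-fold, and 17.6-fold without muscle SP 1, 2 and 3), and Pparg, the master factor of fat cells (at least 10.2-fold), among the higher ones, and with Adipoq and Lep, hormones made by fat cells alone, among those that did not pass.

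Genes of energy metabolism and of the ribosome differed by list, beside 18.9% of all genes called higher and 22.4% called lower. Of 57 oxidative phosphorylation genes, 11 were higher in muscle SP, 0 were lower and 46 did not pass (median log2 difference 0.07). The share called higher lay near that of all genes, and 7 were higher in a fit of only the groups compared. Of 17 glycolysis enzymes, 1 was higher in muscle SP, 7 were lower and 9 did not pass (median log2 difference -0.39), with the glucose transporter Slc2a1 as the higher member (4.86-fold, and 7.57-fold without muscle SP 1, 2 and 3) and the hexokinase Hk2 2.35-fold lower. Of 33 ribosomal protein genes, 0 were higher in muscle SP, 15 were lower and 18 did not pass (median log2 difference -0.39), and 10 rather than 15 were lower under median scaling. Rps24, a protein of the small ribosomal subunit, read 16.32, 16.43, 16.23, 16.43 and 16.43 and 16.37, 16.12, 16.32, 16.08 and 16.10, with a 95% interval of -0.10 to 0.44, and is among the brightest genes whose interval lay within 2-fold either way, with Rps19, Rps28, Rpl41 and Rpl7. Of 4 sex-linked genes measured, Eif2s3y passed (log2 -0.53 ± 0.18, adjusted p = 0.0253), a call lost without muscle SP 3 and without bone marrow SP 3, 4 or 5 in turn (adjusted p from 0.0517 to 0.0873). The Eif2s3y call was also lost under median scaling (limma adjusted p = 0.289) and in a fit of only the groups compared (0.101). Leaving out muscle SP 1, 2 and 3 (0.226) or the 3 SP arrays of highest GAPDH ratio (0.185) removed it as well.

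Much of the tissue difference was shared with main population cells. The MP groups were compared on arrays of their own but in the same fit. Both comparisons therefore share the normalization, the set of genes tested and the estimate of spread, and are not independent. In MP cells 23.6% of genes were higher in muscle and 25.4% lower. Of the genes higher in muscle SP, 1055 were also higher in muscle MP (76.6% of the SP and 61.4% of the MP calls), and of those lower 1000 were also lower in muscle MP (61.3% and 53.97%). The difference between the tissue differences, tested as an interaction in the same fit, passed for 1463 genes (20.1%). Among genes called between the SP groups it passed for 929 of 3010, and 110 of these were called the opposite way in MP cells. The log2 GAPDH control ratio ran lower on MP arrays, from 1.88 to 3.44 in muscle and from 1.49 to 3.31 in bone marrow. On SP arrays it ran from 3.34 to 4.79 and from 2.94 to 4.23. Whether this bears on the interactions was not tested.

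Selp and Lrg1 had the largest interactions toward muscle SP. Selp, P-selectin stored in endothelium and platelets, read 12.73, 12.74, 12.11, 13.77 and 13.91 in muscle SP and 6.71, 7.52, 8.77, 6.71 and 6.71 in bone marrow SP, 54.5-fold higher (94.1-fold without muscle SP 1, 2 and 3), against means of 10.47 against 9.62 in muscle and bone marrow MP (interaction 4.92 ± 0.55, adjusted p = 1.7e-06). Lrg1, a secreted protein of neutrophils and of vessels, read 9.62, 11.59, 10.88, 12.08 and 11.72 and 10.44, 8.88, 9.82, 8.38 and 6.71, 5.04-fold higher (8.31-fold without muscle SP 1, 2 and 3), whereas its MP means were 8.90 against 11.86 (interaction 5.30 ± 0.71, adjusted p = 1.7e-05). It thus lay on the muscle side in SP cells and on the marrow side in MP cells. Ceacam10, Prg2 and Bmx followed with interactions of 4.71 ± 0.51, 4.47 ± 0.77 and 4.45 ± 0.37, but none of them was called higher in muscle SP. Ceacam10 and Prg2 were at the floor on all muscle SP and MP arrays, with bone marrow means of 8.21 and 8.08 in SP and 12.92 and 12.55 in MP. Ceacam10 was thus called lower in muscle SP (log2 -1.50) and Prg2 did not pass (log2 -1.37). Bmx, a kinase of endothelium and granulocytes, had a log2 difference of 0.60 in SP cells, which did not pass, against MP means of 8.24 and 12.09. Toward bone marrow SP the largest was Thy1, a glycoprotein on T lymphocytes and on part of the blood stem cells, which read 9.04, 9.75, 10.59, 9.99 and 9.79 and 12.53, 12.18, 13.45, 11.77 and 10.85, 5.02-fold lower in muscle SP, against MP means of 10.03 against 6.71 (interaction -5.65 ± 0.48, adjusted p = 5.0e-08). Slc1a4, an amino acid transporter, read 9.89, 9.60, 9.22, 9.40 and 9.80 and 10.69, 11.30, 10.72, 10.74 and 11.42 (2.63-fold lower, interaction -4.65 ± 0.29). F2r, the thrombin receptor of platelets and endothelium, read 13.52, 12.62, 12.49, 11.38 and 11.55 and 13.58, 14.35, 13.98, 14.88 and 15.07 (4.16-fold lower, 7.48-fold without muscle SP 1, 2 and 3, interaction -4.26 ± 0.46), with -0.53 and -0.09 for its other probe sets in the SP comparison. F2rl3, another thrombin receptor, was 4.54-fold lower and 14.5-fold without muscle SP 1, 2 and 3, with an SP call lost without muscle SP 4 and 5 (2.09-fold, adjusted p = 0.0728), and Itm2a 2.49-fold higher in muscle SP but more so in MP cells, with interactions of -4.26 ± 0.78 and -4.24 ± 0.35. Meis1, Procr and Cd34 had interactions of -3.67 ± 0.39, -2.80 ± 0.34 and -2.20 ± 0.35, each toward bone marrow SP, and Cdh5 and Mpo had -0.39 ± 0.47 and 0.56 ± 0.51, which did not pass (adjusted p = 0.637 and 0.512).

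**Figure D5:**
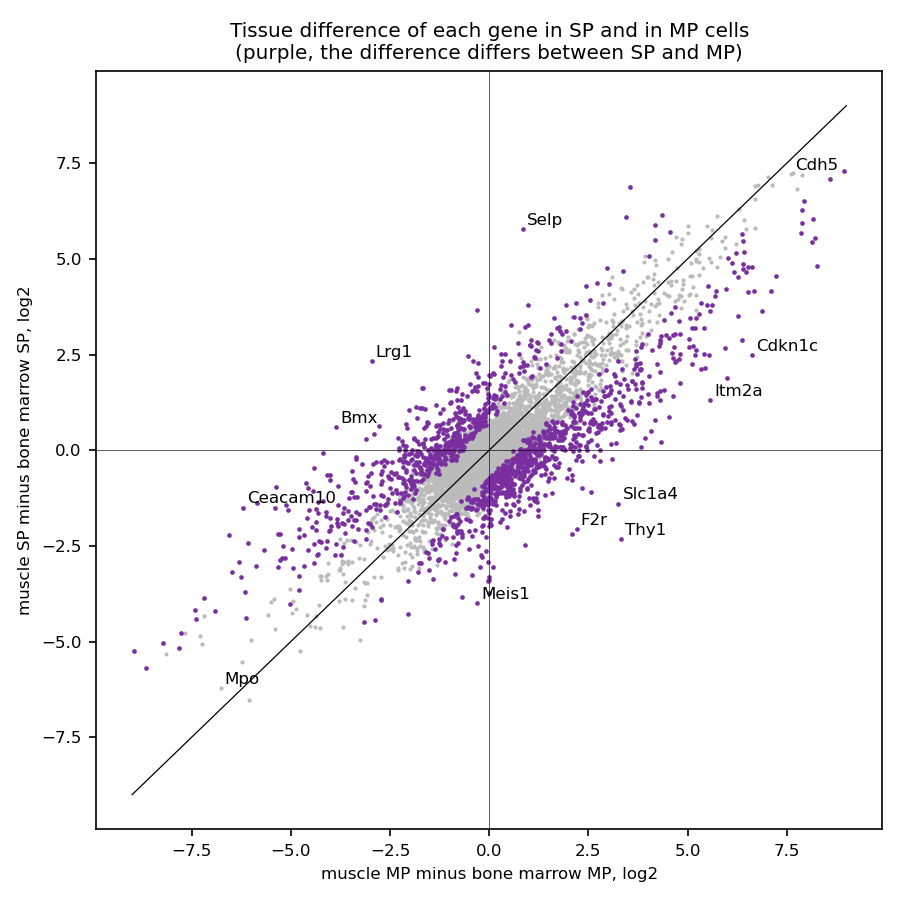
Log2 difference between muscle and bone marrow of each of 7295 genes in MP cells (x axis) and in SP cells (y axis), with the line of equal difference. Genes whose interaction passed are purple, and Selp and Lrg1 lie above the line while Thy1, Slc1a4 and F2r lie below it.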

How the data were processed

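Total RNA of the sorted cells was the starting material for the expression arrays. The authors deposited linear signal intensities, scaled to a 2%-trimmed mean of about 1501 on every array, as the values show. Neither the software nor the background correction is given in the sources used here. Of 12422 probe sets that are no controls, 10833 had 1 gene symbol, 396 had several and 1193 had none. RefSeq (GRCm38.p6) matched 10817 by gene identifier and changed 0 symbols.

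Raw medians of the SP arrays lay between 374.9 and 613.05, so the arrays were quantile normalized. Values under the 25th percentile were set to it, log2 was taken, and probe sets above it on at least 5 of 20 arrays were kept (10310). Quantile normalization removes any overall difference in RNA content, and the floor shrinks the folds of dim genes. One model of all 4 groups was fitted in limma 3.58.1 (R 4.3.3, empirical Bayes, two-sided tests, Benjamini-Hochberg over all probe sets tested, threshold 0.05). The number of arrays limits the precision. A gene stands for its brightest probe set. A fold against a group with at least 4 of its 5 arrays at the floor is written as at least that size, unless arrays of the higher group also lay there. The fit was tested on simulated data.

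Named genes were the 12 largest differences each way without overlap, the 5 largest interactions each way, up to 4 of each list each way, 5 bright genes within 2-fold and a set of stem cell, pump, vessel and muscle genes. Of these the text shows a part, and the genes shown array by array were picked after their values were seen. The members and the 38 lists were chosen with earlier results of these data known. Of the genes in the lists, 260 had no probe set with a single symbol. For 1508 genes with several probe sets, 12 had calls in opposite directions. Promoters are the 250 bases before the RefSeq start, matched by symbol for 5840 of 7295 genes. Control ratios were compared by exact two-sided permutation over 252 splits, where the smallest possible p is 0.00794. Alternatives were other scalings, floors, a pseudocount of 32, filters, weights on arrays, other empirical Bayes options, a model of the SP groups alone, a replicate block and each array left out. Chosen after seeing the data were fits without 3 arrays of high GAPDH ratio, with that ratio as a covariate, and without muscle SP 1, 2 and 3 or 4 and 5. Figures used matplotlib 3.10.9 in Python 3.11.15.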

Additional observations from a re-analysis of the deposited data

Results flagged for a closer look

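Outliers were sought in the 5 arrays of each group for the genes shown array by array and for the summed signal of marker lists, by the gap between an extreme array and its nearest neighbour. Of 203 sets of 5 values, 17 had an array that stood apart. The usual chance rate of about 1 in 20 does not apply. The genes were picked after their values were seen, and the lists with earlier results known. In 6 of the 17 the other 4 arrays lay at the floor, so that any value above it stands apart by construction (Col1a2, Ackr3, Meis1, Il6, Ebf1 and Sox2). For Igfbp3 and Cdh5 most of the other arrays lay at the floor as well. On bone marrow SP 2, Col1a2 read 8.55, Igfbp3 8.0, Cdh5 9.14, Cav1 10.18 and Ackr3 7.05, each above the other bone marrow SP arrays (nearest 6.71, 6.84, 7.15, 7.66 and 6.71). These are vessel and matrix genes, and without this array as with it all 5 were called higher in muscle SP. On bone marrow SP 5, Socs3 was high at 12.20 and Ebf1 at 7.16, the satellite cell list had a high summed log2 signal of 15.28 and the erythroid list a low one of 16.20. On bone marrow SP 4, Il6 read 8.32 and Sox2 7.84 where the other arrays of the group were at the floor, and on bone marrow SP 1 Kdr was low at 8.69.

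Among the muscle SP arrays, Mpo was high on array 2 at 8.94, Meis1 was above the floor on array 5 only at 7.31, and Igf2 was high on array 1 at 15.41. The summed log2 signal of muscle fibre genes was high on muscle SP 1 at 15.59. For B lineage markers it was low on muscle SP 3 at 13.40.

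The tissue difference differed between SP and MP cells, by the interaction in the limma fit, for the 5 genes each way with the largest interactions. Toward muscle SP the log2 interactions were 5.30 for Lrg1, 4.92 for Selp, 4.71 for Ceacam10, 4.47 for Prg2 and 4.45 for Bmx. Toward bone marrow SP they were -5.65 for Thy1, -4.65 for Slc1a4, -4.26 for F2rl3, -4.26 for F2r and -4.24 for Itm2a.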

How the results depend on the processing

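The counts of calls over all probe sets and genes kept within 1.5 times the reported value under every alternative run, and no call in the comparison of the SP groups changed direction. Of 1976 counts of gene list members, 136 moved by over 1.5 times, 128 of them between counts of at most 5. The other 8 were chemokine genes lower (12 to 7, without muscle SP 4 and 5), interferon genes lower (3 to 6) and MHC class I genes lower (3 to 7) and Schwann cell genes higher (7 to 4) without muscle SP 1, 2 and 3, MHC class I genes lower (3 to 6) without the 3 arrays of highest GAPDH ratio, oxidative phosphorylation (11 to 7) and Wnt genes (8 to 5) higher in a fit of only the groups compared, and Wnt genes higher (8 to 5) at a floor of the 40th percentile. The probe sets higher in muscle SP numbered 1767 and ranged from 1507 to 1876, and those lower numbered 2186 and ranged from 1670 to 2742, with both minima from a fit of only the groups compared. With each array left out in turn they ranged from 1636 to 1876 and from 1951 to 2329. With the replicate number as a block, 1854 were higher and 2307 lower. The numbers were not treated as pairing the samples, since the correlation of the deviations of same-numbered arrays was 0.05 to 0.30, over 0.1 for 3 of 5 numbers, and 2 of 5 arrays correlated best with their own number. Of 210 named genes that passed, 182 never lost the call, and 147 of 5465 gene values were weaker and 18 stronger, none reversed. The difference of the GAPDH control ratio ranged from -0.14 to 0.31, so its sign depended on single arrays. Dim genes are limited by the signal floor, and their folds grow or shrink with it. At a floor of the 40th percentile the Myf5, Sox2, Ceacam10, Ccn4, Mx1, Il4 and Skil calls were lost.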
